A study of Mus musculus with 19 samples.

Results

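The genes described here encode the translation initiation factors of the mouse, measured as mRNA in single preimplantation embryos. Members were taken by name: every protein-coding gene whose symbol begins with Eif and a digit from 1 to 6, without names that begin with Eif4a3 or Eif2s3. The rule found 52 of the 53379 gene rows, or 52 of 21963 protein-coding rows, and used no measured value. Of the 52, 50 passed a filter on low values and entered the tests; Eif2ak2 and Eif4e1b did not pass.

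The study compared embryos that lack Alyref, an adaptor for mRNA export, or Gabpb1, which encodes part of the transcription factor complex GABP, with other embryos of the same matings. All embryos were of B6D2F1 background, came from in vitro fertilisation, grew in KSOM medium at 37°C under 5% CO2 and were collected at 96 hpi. Eggs and sperm of Alyref+/- mice gave 2 morulae labelled Alyref KO, and 3 morulae and 3 blastocysts labelled non-KO. Eggs and sperm of Gabpb1+/- mice gave 3 morulae labelled Gabpb1 KO, and 2 morulae and 3 blastocysts labelled non-KO, and WT parents gave 3 blastocysts. The submitters assigned KO from missing reads over the deleted region in these same libraries, so a non-KO embryo can be WT or heterozygous. Every KO embryo was a morula. Each library is 1 whole embryo, and fewer cells of a type and less RNA per cell cannot be told apart in it. The labels do not name the parents of an embryo, cross and culture batch cannot be told apart, and p-values measure the spread between these embryos.

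Initiation begins when eIF2, carrying GTP and the initiator methionyl-tRNA, joins the small ribosomal subunit together with eIF1, eIF1A and the large scaffold eIF3. The cap-binding protein eIF4E, the scaffold eIF4G and the helicase eIF4A bring this complex to the mRNA 5′ end, and the eIF4E-binding proteins block that step by holding eIF4E. After the start codon is found, eIF5 triggers GTP hydrolysis, eIF5B joins the large subunit and eIF2B recharges eIF2 with GTP. The eIF2 kinases, each sensing another stress, phosphorylate eIF2 so that it traps eIF2B, which is the core of the integrated stress response.

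Gene counts per embryo summed to between 7.49e6 and 31.5e6, and the initiation factor genes took 1.36% to 2.17% of them. Alyref was at 47.8 and 58.5 CPM (counts scaled to the library total) in the KO morulae and at 161 to 291 CPM in the non-KO morulae of the cross. Gabpb1 ranged from 78.2 to 259 CPM in its labelled KO morulae, a range that takes in the 83.3 and 93.8 CPM of the non-KO morulae of the cross (log2 fold change 0.88, adjusted p 0.243, edgeR QL). Counts per gene do not show the deleted exons, so that label rests on the submitters' read check. Markers of trophectoderm, the outer layer of the blastocyst, summed to 5412 to 8548 CPM in blastocysts and 517 to 5192 CPM in morulae, over 12 of 12 genes. Cumulus cell markers summed to at most 0.896 CPM over 7 genes in any embryo.

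An 8-base motif of the kind bound by GABP, CCGGAAGT on either strand, was looked for in RefSeq promoters (GRCm38.p6, 250 bases before to 50 after a start), because GABP is the factor that Gabpb1 belongs to. Promoters were matched for 40 of the 52 genes. The motif lay in 8 of these 40 genes, at 9 sites. Over all 32851 promoters of that length 3.89% held it, and over the 53 promoters of the initiation factor genes 18.9% did. These sets are unlike: the 32851 promoters are not limited to tested genes, and the 3 promoters of Eif4e2 hold the same site. Counted by tested gene with a matched promoter, 20.5% of the members held it and 9.58% of all genes. The motif was chosen with results of these data known, and a match is a description of letters, not of binding. The sites that carry the comparison below are shown here as 30 bases read on the strand of the gene, with the motif in capitals, so that the genes can be compared:
Eif2ak1 (chr5:143817796-143817825, plus strand): gctcttgtgttACTTCCGGcttggggggag
Eif2b2 (chr12:85219486-85219515, plus strand): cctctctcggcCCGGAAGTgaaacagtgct
Eif2b4 (chr5:31193120-31193149, minus strand): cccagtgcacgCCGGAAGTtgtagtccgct
Eif3l (chr15:79075176-79075205, plus strand): ggctgggcgggACTTCCGGtccggccaagc
Eif3d (chr15:77970877-77970906, minus strand): agctgtgacacACTTCCGGttgtgtctcac
Eif4e2 (chr1:87213905-87213934, plus strand): tcgccagccaaCCGGAAGTagccgggccct
Eif5a (chr11:69920667-69920696, minus strand): cagccgtagcaCCGGAAGTgttccccattg
Eif5a2, upstream site (chr3:28781102-28781131, plus strand): agctctgcacgCCGGAAGTgcactaatccg
Eif5a2, site near the start (chr3:28781230-28781259, plus strand): cggggcctatcCCGGAAGTgtggtcgcggc
In Eif2ak1, Eif2b2 and Eif2b4 the motif begins 16, 17 and 2 bases into the transcribed sequence, counting the start as 1. In Eif3l and Eif3d it begins 36 and 71 bases before the start. Eif4e2 has several annotated starts, and its site lies before 1 of them and after the others. Eif5a has 6 annotated promoters, of which 1 holds the motif, and that one belongs to the start farthest downstream.

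Most initiation factor genes were expressed far above the typical gene. Levels between genes are given per length, as FPKM (CPM per kilobase of exon) computed from the counts, averaged over the 19 embryos. The median was 53.7 FPKM over the 50 tested members and 4.01 FPKM over all 18410 tested genes. Of the 52 members, 16 lay at or above 100 FPKM, 26 between 10 and 100, 6 between 1 and 10, and 4 under 1.

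**Figure D1:**
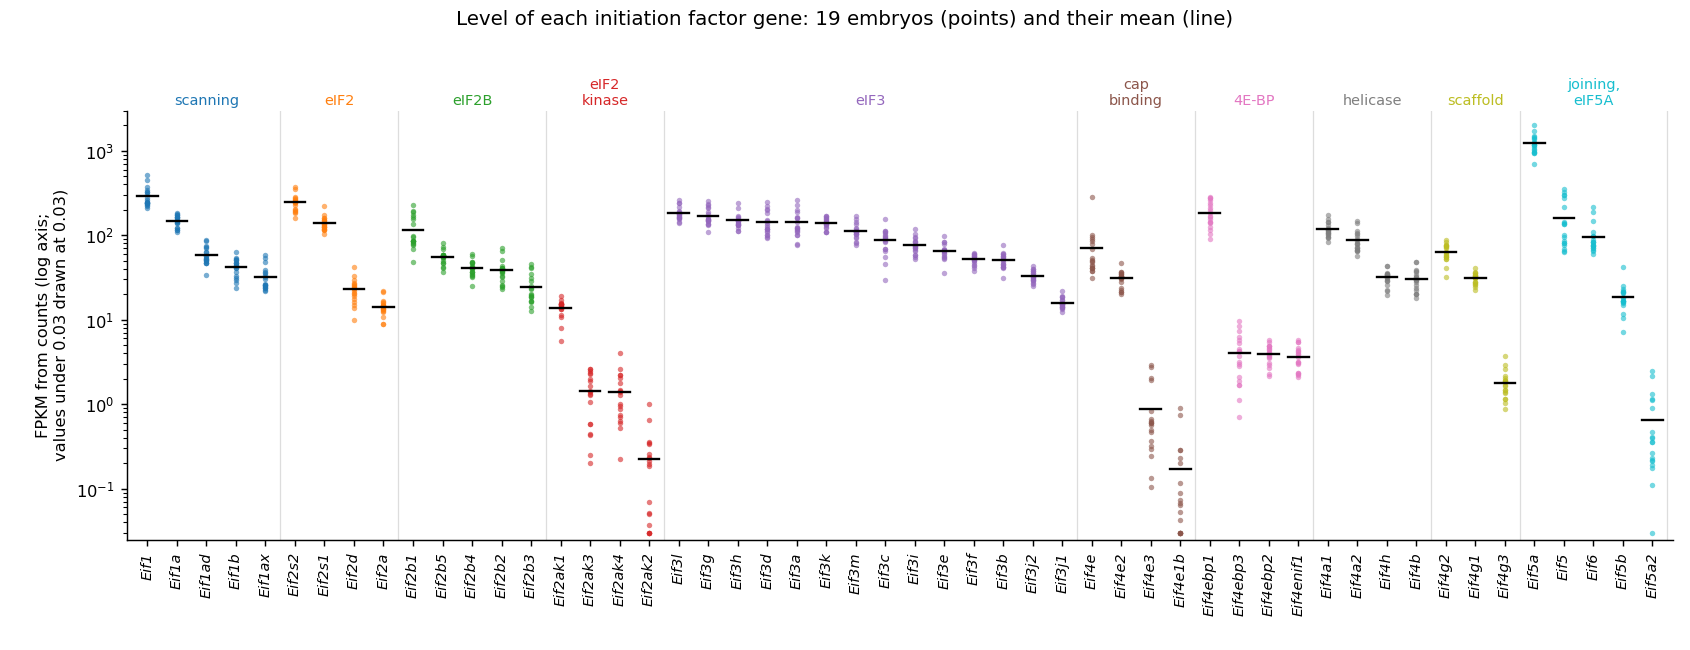
Level of each of the 52 initiation factor genes (x axis, grouped by role) in FPKM on a log axis, with 1 point per embryo and a line at the mean of the 19 embryos. Eif5a stands highest at a mean of 1222 FPKM, the eIF3 subunits lie between 15.8 and 184 FPKM, and Eif4e1b and Eif2ak2 lie lowest at 0.169 and 0.224 FPKM.

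Among the scanning factors, Eif1, which guards start codon selection, led with 291 FPKM and ranged from 211 to 514 FPKM over the embryos. Eif1a on chromosome 18, one of the genes for eIF1A, had a mean of 149 FPKM, against 32.3 FPKM for its X-linked counterpart Eif1ax. The eIF2 subunit genes Eif2s2 and Eif2s1 were at 245 and 139 FPKM. Eif2d and Eif2a, which encode alternative tRNA-delivering factors outside the trimer, were at 22.9 and 14.3 FPKM. The catalytic eIF2B subunit gene Eif2b5 was at 55.5 FPKM, and Eif2b1, a regulatory subunit gene, at 116 FPKM.

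The kinase genes were low. Eif2ak1, which encodes the haem-regulated kinase HRI, had the highest mean of the kinase genes at 13.9 FPKM (5.60 to 19.1 over the embryos). Eif2ak3, for the endoplasmic reticulum kinase PERK, and Eif2ak4, for the amino acid sensor GCN2, were both at 1.41 FPKM. Eif2ak2, for the double-stranded RNA sensor PKR, was at 0.224 FPKM and was not tested. Eif2ak1 made up 77.6% to 89.6% of the summed FPKM of the kinase genes as group means.

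The 14 eIF3 genes were all tested, and Eif3l led with a mean of 184 FPKM, followed by Eif3g (171 FPKM), Eif3h (150.1 FPKM), Eif3d (143 FPKM), Eif3a (142 FPKM), Eif3k (140.3 FPKM) and Eif3m (113 FPKM). Eif3j1 was lowest at 15.8 FPKM. Its single-exon copy Eif3j2 was at 33.1 FPKM, and reads of this near-identical pair can be split between the copies by the counting.

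Of the cap-binding genes, Eif4e had a mean of 69.7 FPKM and Eif4e2, for the alternative cap-binding protein 4EHP, 31.0 FPKM. Eif4e1b, the oocyte form, had 0.169 FPKM with at most 2.02 CPM in any embryo, and Eif4e3 had 0.867 FPKM. Among genes for eIF4E-binding proteins, Eif4ebp1 supplied 91.7% to 98.3% of the summed FPKM of Eif4ebp1, Eif4ebp2 and Eif4ebp3 as group means. The deposited exons of Eif4ebp3 share 67.3% of their length with those of Ankhd1 on the same strand, so its low counts cannot be assigned to it alone. Of the scaffold genes, Eif4g2 (63.6 FPKM) exceeded Eif4g1 (31.1 FPKM) and Eif4g3 (1.80 FPKM). Eif5a, whose hypusine-bearing product helps ribosomes past difficult peptide bonds, supplied at least 99.8% of the summed FPKM of Eif5a and Eif5a2 in every embryo. The processed pseudogene rows Eif4a-ps4 (165 to 342 CPM) and Eif5al3-ps (84.9 to 223 CPM) also held reads, and how reads shared with the parent genes were counted is not given in the sources used here.

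In the Gabpb1 cross, 1 of the 50 tested initiation factor genes fell in the morulae labelled KO, and none rose. That gene was Eif2ak1 (ENSMUSG00000029613.15, GRCm38 chr5:143817788-143904251, plus strand). Over all 18410 genes 1.3% were called lower and 1.65% were called in either direction, at an adjusted p under 0.05 in edgeR's quasi-likelihood (QL) test with Benjamini-Hochberg adjustment over all genes. Without adjustment, 13 members (26%) had p under 0.05, 8 of them higher and 5 lower, against 18.9% of all genes.

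Eif2ak1 was at 61.2, 45.3 and 31.8 CPM in the morulae labelled Gabpb1 KO and at 86.7 and 108 CPM in the non-KO morulae of the cross. The Alyref KO morulae had 88.4 and 75.6 CPM and the Alyref cross non-KO morulae 86.9, 75.7 and 65.1 CPM. Blastocysts had 97.6, 88.0 and 82.6 CPM in the Alyref cross, 87.6, 80.4 and 80.7 CPM in the Gabpb1 cross and 85.1, 85.8 and 86.5 CPM from WT parents. All 3 labelled KO embryos thus lay below each of the other 16 embryos, whose lowest was 65.1 CPM. On the log2 scale the labelled KO morulae differed from the non-KO morulae of the cross by -1.08 (SE 0.23, adjusted p 0.0315, edgeR QL).

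The direction of the Eif2ak1 difference held in all 14 alternatives, from -1.40 to -0.88, with adjusted p from 0.000268 to 0.474. It missed the threshold without the second (0.0686) or the third labelled KO morula (0.0615), without the first (0.055) or the second non-KO morula (0.255), with ERCC scaling (0.474) and with these groups alone in the fit (0.323). The annotated exons of Eif2ak1 share 487 bases, 8.59% of its length, with Aimp2 on the other strand. They share 172 bases (3.03%) with Ankrd61, also on the other strand. The strand setting of the counting is not given in the sources used here, so reads there cannot be told apart. Aimp2, a scaffold of the tRNA synthetase complex, differed by -0.75 on the log2 scale in the same contrast (SE 0.21, adjusted p 0.0755, edgeR QL). The scarcer Ankrd61, at means of 1.90 CPM in labelled KO and 4.62 CPM in non-KO morulae, differed by -1.28 (SE 0.43, adjusted p 0.13, edgeR QL).

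The difference between the KO effects of the crosses was called for 0 of the 50 members with edgeR, where 0.907% of all genes were called. At an unadjusted p under 0.05 stood 9 members (18%), near the 16.8% of all genes. DESeq2 called 2 members (4%) and limma with embryo weights 1 (2%), against 4.86% and 4.2% of all genes. For Eif2ak1 that difference was -1.19 (SE 0.32, adjusted p 0.0899), so it was not shown that Eif2ak1 responded differently from the Alyref cross, where its log2 fold change was 0.11 (SE 0.23).

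**Figure D2:**
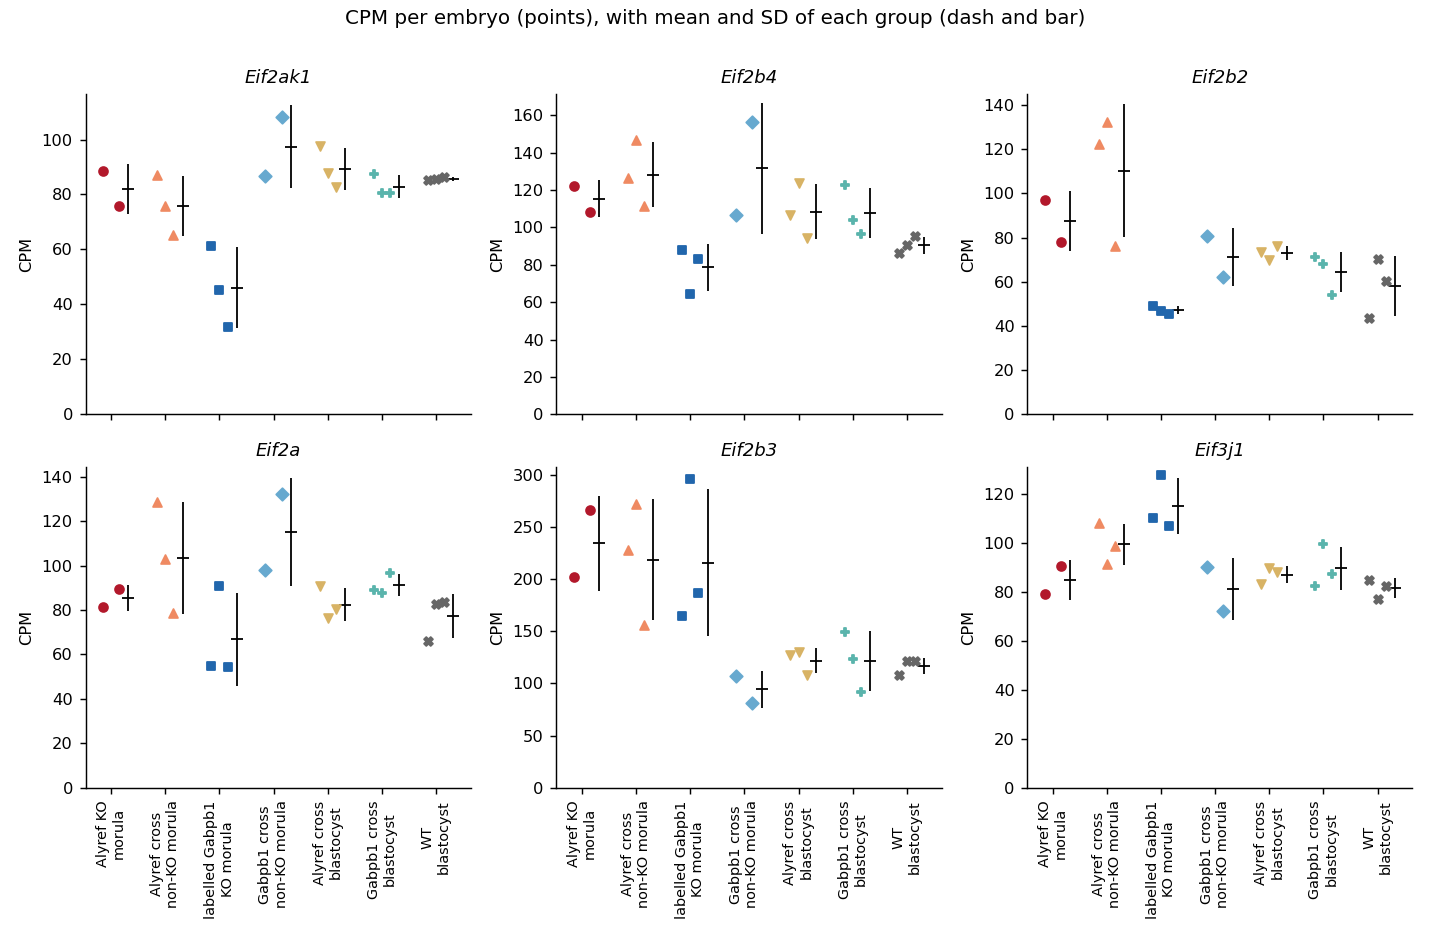
CPM of 6 initiation factor genes in every embryo (points; y axes from 0), by group on the x axis, with a dash and bar for the mean and SD of each group (n = 2 or 3). Eif2ak1 lies at 31.8 to 61.2 CPM in the morulae labelled Gabpb1 KO and at 65.1 CPM or more elsewhere, while Eif2b3 is low in the Gabpb1 cross non-KO morulae (107 and 81.7 CPM) and in blastocysts.

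The genes of the eIF2B complex, the exchange factor that the kinases act on, had fold changes of both signs in the Gabpb1 cross, with none called. Eif2b3 was at 165, 297 and 187 CPM in the labelled KO morulae and at 107 and 81.7 CPM in the non-KO morulae. Eif2b3 thus differed by 1.19 on the log2 scale (SE 0.29, adjusted p 0.051). It passed the threshold in 5 of 14 alternatives, among them without the first labelled KO morula (0.0225). With the non-KO morulae of both crosses as the comparison the fold change was 0.35, since Eif2b3 stood at 228, 272 and 157 CPM in the Alyref cross non-KO morulae.

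Eif2b3 encodes a subunit of the catalytic part. Eif2b4, for a regulatory subunit, was at 88.1, 64.6 and 83.3 CPM in the labelled KO morulae and at 107 and 156 CPM in the non-KO morulae. Its log2 fold change was -0.74 (SE 0.21, adjusted p 0.0783, edgeR QL), and 7.85% of its length is shared with Snx17 on the other strand. Snx17 itself differed by -1.18 on the log2 scale in this contrast (SE 0.39, adjusted p 0.128, edgeR QL). Eif2b2 was at 49.2, 46.9 and 45.6 CPM against 80.6 and 62.0 CPM (log2 fold change -0.59, SE 0.25, adjusted p 0.212). For Eif2b4 and Eif2b2 the labelled KO values lay below those of the non-KO morulae without overlap; for Eif2b2 1 WT blastocyst, at 43.5 CPM, also lay below them. Eif2b1 and Eif2b5 had log2 fold changes of 0.37 and -0.11.

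Eif2a was at 55.0, 90.7 and 54.5 CPM in labelled KO morulae and at 98.0 and 132 CPM in non-KO morulae (log2 fold change -0.79, SE 0.25, adjusted p 0.11). Eif2ak3 was at 9.99, 2.68 and 1.21 CPM against 13.7 and 11.4 CPM, which differ by -1.44 on the log2 scale with an SE of 0.81 (adjusted p 0.352). These groups did not overlap for either gene, but the spread of Eif2ak3 within the labelled KO group was wide. With Eif2b3, the 3 largest fold changes upward were those of the scarce transcripts Eif5a2 and Eif4ebp3. Eif5a2 was at 4.56, 5.65 and 6.60 CPM against 1.07 and 2.05 CPM (log2 fold change 1.84, SE 0.93, adjusted p 0.299), and Eif4ebp3 at 7.23, 2.13 and 2.20 CPM against 3.20 and 0.837 CPM (0.92, SE 0.69, adjusted p 0.49).

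Over all 50 members the median log2 fold change was 0.22 in this cross, beside 0.06 over all genes, and 30 members were higher and 20 lower. With ERCC spike-in counts as library size the member median turned to -0.35 and that of all genes to -0.40. When non-KO morulae of both crosses were pooled as the comparison it turned to -0.12, and with 1 embryo left out it ranged from 0.085, without the third labelled KO morula, to 0.196. All labelled KO values lay above all non-KO values for 11 members (22%, against 15.8% of all genes) and below them for 8 (16%, against 16.4%). The joining and eIF5A group was higher in 5 of 5 genes (median 0.59) and the kinase group lower in 2 of 3 (median -1.08); eIF3 was split, with 7 higher and 7 lower and a median of 0.02. Trophectoderm markers were lower in 11 of 12 genes in the labelled KO morulae (summed 517 to 3163 CPM against 3399 and 5192 CPM; no gene at 0 in a whole group), and their part in these values was not tested.

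Fold changes in this contrast are split here by the promoter motif. The 8 genes that hold it had a median log2 fold change of -0.30, with 6 lower and 1 called, and the 31 tested genes with a matched promoter that lack it had a median of 0.28, with 12 lower and 0 called. The 6 lower genes with the motif were Eif2ak1, Eif2b4, Eif2b2, Eif3l at -0.40, Eif4e2 at -0.20 and Eif3d at -0.02, of which only Eif2ak1 passed the test. The higher genes with the motif were Eif5a at 0.43, which holds it in 1 of its 6 promoters, and Eif5a2 at 1.84. The single promoter of Eif5a2 holds it at both of the sites shown. Over all 9535 tested genes with a matched promoter, 913 held the motif (9.58%, against 20.5% of the matched tested members). Their median was -0.19 with 4.38% called lower, and that of the other 8622 genes was -0.02 with 1.46% called lower. In the Alyref cross the medians were -0.01 for the 8 members with the motif and -0.19 for the 31 without, and -0.04 for both sets of all genes. No test was run on these splits.

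**Figure D3:**
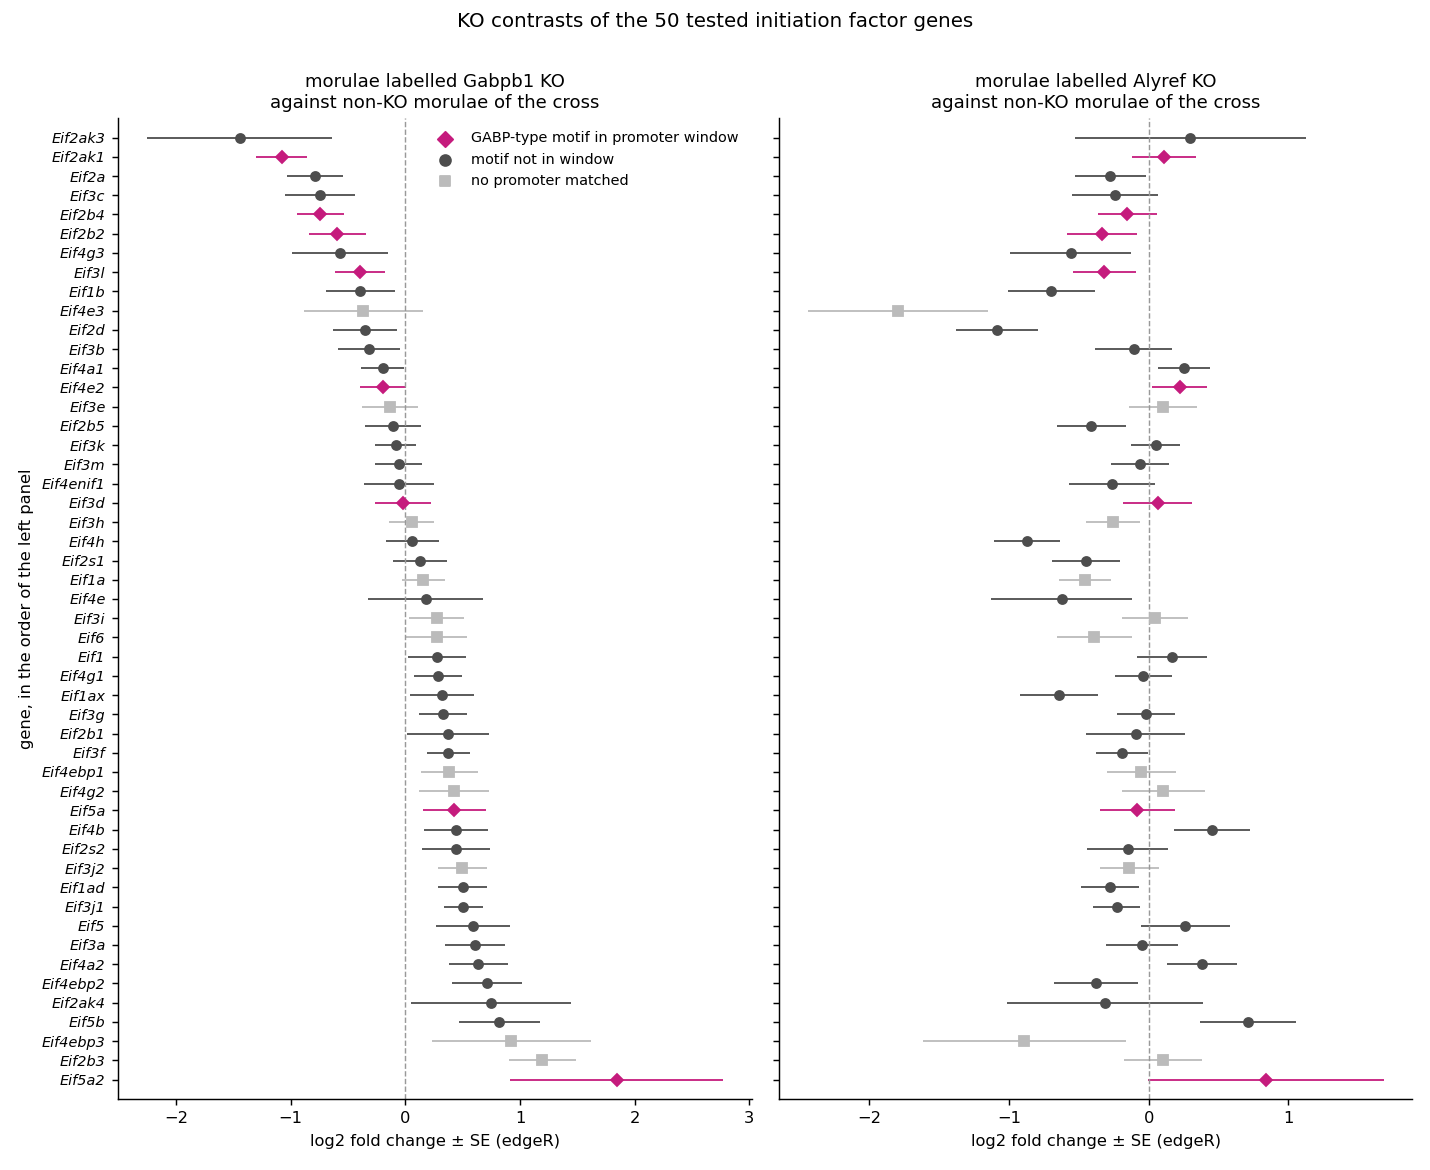
Log2 fold change with its SE (x axis) of the 50 tested members (y axis, in the order of the Gabpb1 contrast) in morulae labelled Gabpb1 KO (left) and Alyref KO (right) against non-KO morulae of the same cross. Diamonds mark genes with the GABP-type motif: on the left 6 of the 8 lie below 0, with Eif5a and Eif5a2 above, and on the right 4 of the 8 do.

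Other genes that act on initiation were read from lists by role. Of 17 partners of the initiation factors, 1 rose in the labelled KO morulae and 0 fell. It was Pabpc4, a poly(A)-binding protein gene, higher by 1.82 on the log2 scale (SE 0.35, adjusted p 0.0222): the labelled KO morulae had 127 to 133 CPM and the non-KO morulae 32.6 and 41.2 CPM, while the Alyref cross non-KO morulae had 74.5 to 195 CPM. Of 14 tested genes that signal to initiation, 1 fell and 0 rose. It was Impact, which restrains the kinase GCN2, at -2.76 (SE 0.59, adjusted p 0.0338). Impact stood at 4.91 to 28.0 CPM in the labelled KO morulae and at 59.0 and 154 CPM in the non-KO morulae, but at 8.82 to 43.4 CPM in the other 5 groups, so both non-KO morulae lay above every other embryo. None of 12 integrated stress response targets was called. Atf4, the transcription factor of that response, was at 80.2 to 149 CPM in labelled KO and at 74.2 and 94.9 CPM in non-KO morulae.

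In the Alyref cross, edgeR's QL test called 0 of the 50 initiation factor genes between KO and other morulae, where 0.228% of all genes were. At an unadjusted p under 0.05 stood 6 members (12%), near the 12.1% of all genes, and all 6 were lower in KO: Eif2d, Eif4h, Eif4e3, Eif1a, Eif1ax and Eif1b. DESeq2 called 2 members (4%), against 2.73% of all genes, of which 3262 had no adjusted p and count as not called. Limma with embryo weights called 2 (4%), against 4.57% of all genes. All of these members were lower. The median log2 fold change was -0.15 over the 50 members and -0.04 over all genes, with 34 members lower and 16 higher. Both KO embryos lay below all 3 non-KO morulae for 10 members (20%, against 12.3% of all genes) and above them for 1 (2%, against 12.5%).

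Eif2d, for a factor that can deliver the initiator tRNA without GTP, was at 163 and 73.7 CPM in KO and at 312, 240 and 203 CPM in non-KO morulae. Its log2 fold change was -1.09 (SE 0.29, adjusted p 0.133), and it ranged from -1.76 without the first KO embryo to -0.64 without the second. Eif4h, a cofactor of the eIF4A helicase, was at 122 and 109 CPM against 243, 200 and 191 CPM (log2 fold change -0.87, SE 0.24, adjusted p 0.136). The other 3 helicase genes had the opposite sign, uncalled, with log2 fold changes of 0.45 for Eif4b, 0.38 for Eif4a2 and 0.25 for Eif4a1. Eif4b had 187 and 185 CPM in KO and 148, 115 and 144 CPM in non-KO morulae (SE 0.27, adjusted p 0.552), the 1 member with both KO values on top.

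Both genes for eIF1A were low in KO. Eif1a was at 317 and 403 CPM against 526, 506 and 451 CPM (log2 fold change -0.46, SE 0.19, adjusted p 0.323). Eif1ax was at 135 and 188 CPM against 309, 195 and 254 CPM (-0.64, SE 0.28, adjusted p 0.364). Neither overlapped between the groups, and neither was called. Eif4e3 was near the detection limit at 0.264 and 0.333 CPM against 0.814, 0.928 and 1.49 CPM (-1.79, SE 0.65, adjusted p 0.259). It shares 14.8% of its length with Gm20696 on the same strand, so these low counts cannot be assigned to it alone. Gm20696 had the same mean as Eif4e3 in KO morulae, 0.299 CPM, and 0.344 CPM in non-KO morulae. Eif4ebp3 was at 0.528 and 1.27 CPM against 1.57, 1.27 and 2.33 CPM (-0.89, SE 0.73, adjusted p 0.687). The largest differences upward were Eif5a2 at 12.3 and 5.87 CPM against 2.01, 10.9 and 2.33 CPM (0.84, SE 0.84, adjusted p 0.757) and Eif5b at 216 and 411 CPM against 183, 228 and 164 CPM (0.71, SE 0.34, adjusted p 0.424). In both, KO and non-KO values overlapped.

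Of the 12 tested integrated stress response targets, 1 rose in Alyref KO morulae and 0 fell. It was Slc3a2, an amino acid transporter subunit gene, at 306 and 376 CPM in KO and at 156 to 181 CPM in non-KO morulae (log2 fold change 1.02, SE 0.20, adjusted p 0.049). Among the fits that keep 2 or more embryos in each group, that call was lost with ERCC scaling, without the first non-KO morula and with these groups alone. In those fits no gene was called at all. Calls from fits that leave 1 KO morula are not given, so it is not shown that the call survives the loss of a KO embryo. Atf4 was at 173 and 178 CPM against 93.1 to 109 CPM. Summed over the 13 targets found, the KO morulae had 1716 and 1553 CPM and the non-KO morulae 2238, 2290 and 953 CPM. Of the 17 initiation partners and the 14 signalling genes 0 were called, with 5 and 2 at an unadjusted p under 0.05. Trophectoderm markers summed to 1175 and 2130 CPM in KO and to 1200 to 2460 CPM in non-KO morulae.

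More members differed between stages. In the non-KO embryos of the Alyref cross, 9 of the 50 members were called lower in blastocysts than in morulae and 0 higher. Of all genes 7.43% were called lower and 5.62% higher. Every morula and blastocyst was collected at 96 hpi, so stage and pace of development cannot be told apart. The median log2 fold change was -0.27 over the members and -0.04 over all genes, and 42 members were lower. All 3 blastocysts lay below all 3 morulae for 19 members (38%, against 19.2% of all genes) and above them for 5 (10%, against 19.6%). With ERCC scaling the member median was -0.52 and that of all genes -0.34.

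Eif5, the GTPase activator of start codon recognition (ENSMUSG00000021282.17, chr12:111538016-111546752, plus strand), had the smallest adjusted p of the members. The morulae had 2043, 2383 and 933 CPM of it and the blastocysts 654, 684 and 529 CPM. Its log2 fold change was -1.52 (SE 0.29, adjusted p 0.00854, edgeR QL). Its call held when any single embryo was left out, and missed the threshold with these groups alone in the fit (adjusted p 0.0564). The Gabpb1 cross and WT blastocysts had 433 to 588 CPM.

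Eif6 (chr2:155819832-155826925), whose product keeps the large ribosomal subunit from joining early, was at 513, 587 and 264 CPM in morulae and at 209, 224 and 224 CPM in blastocysts (log2 fold change -1.05, SE 0.24, adjusted p 0.015). Eif4ebp1, for the main eIF4E-binding protein under mTOR control, was at 524, 631 and 572 CPM against 253, 307 and 369 CPM (-0.90, SE 0.22, adjusted p 0.0203). Eif4e itself (chr3:138526179-138559696) was at 571, 1719 and 305 CPM against 247, 224 and 246 CPM (-1.86, SE 0.46, adjusted p 0.0205). The Eif4e value of the second morula stood far above every other embryo, and without that morula the log2 fold change was -0.85 (adjusted p 0.146). In the same morula the markers of the 2-cell stage summed to 225 CPM, against 7.49 and 1.10 CPM in the other morulae of the group, which was not tested as a part of the result.

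Eif1ax (chrX:159372178-159389928) was at 309, 195 and 254 CPM in morulae and at 129, 133 and 118 CPM in blastocysts (log2 fold change -0.997, SE 0.25, adjusted p 0.0213). Its counterpart Eif1a had a log2 fold change of -0.15. Eif3d, for the eIF3 subunit that can itself bind a cap, was at 391, 475 and 292 CPM against 240, 229 and 192 CPM (-0.81, SE 0.22, adjusted p 0.0289); 32.7% of its length is shared with the antisense lincRNA Gm17638. Eif3a, for the largest eIF3 subunit, was at 987, 1368 and 752 CPM against 636, 595 and 615 CPM (-0.75, SE 0.23, adjusted p 0.0442). Eif3d and Eif3a were the called genes among 14 eIF3 genes, all 14 of which had negative fold changes (median -0.26).

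The eIF2B genes gave the last calls. Eif2b1 was at 497, 581 and 250 CPM in morulae and at 221, 221 and 197 CPM in blastocysts (-1.05, SE 0.32, adjusted p 0.0421). Eif2b3 was at 228, 272 and 157 CPM against 127, 130 and 108 CPM (-0.84, SE 0.25, adjusted p 0.0407). All 5 eIF2B genes had negative fold changes (median -0.59). In each of the 9 called genes the blastocysts lay below the morulae without overlap. Of 14 alternatives, the call was missed in 9 for Eif3a, in 8 each for Eif3d, Eif2b1 and Eif2b3, and in 6 for Eif6. It was missed in 5 each for Eif4ebp1, Eif4e and Eif1ax, and in 1 for Eif5.

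The 3 kinase genes tested were all higher in blastocysts, none called: Eif2ak3 was at 14.9, 15.6 and 8.73 CPM against 3.53, 1.52 and 8.03 CPM in morulae (1.58, SE 0.75, adjusted p 0.162), and Eif2ak4 at 16.4, 13.2 and 16.3 CPM against 7.44, 4.47 and 6.60 CPM (1.31, SE 0.62, adjusted p 0.164). Eif4ebp3 was at 4.22, 5.40 and 2.75 CPM against 1.57, 1.27 and 2.33 CPM (1.26, SE 0.61, adjusted p 0.172). Eif5a2 had the largest fold change downward, at 1.77, 0.558 and 0.949 CPM against 2.01, 10.9 and 2.33 CPM (-2.17, SE 0.81, adjusted p 0.0831), and rested on the second morula (-0.93 without it).

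**Figure D4:**
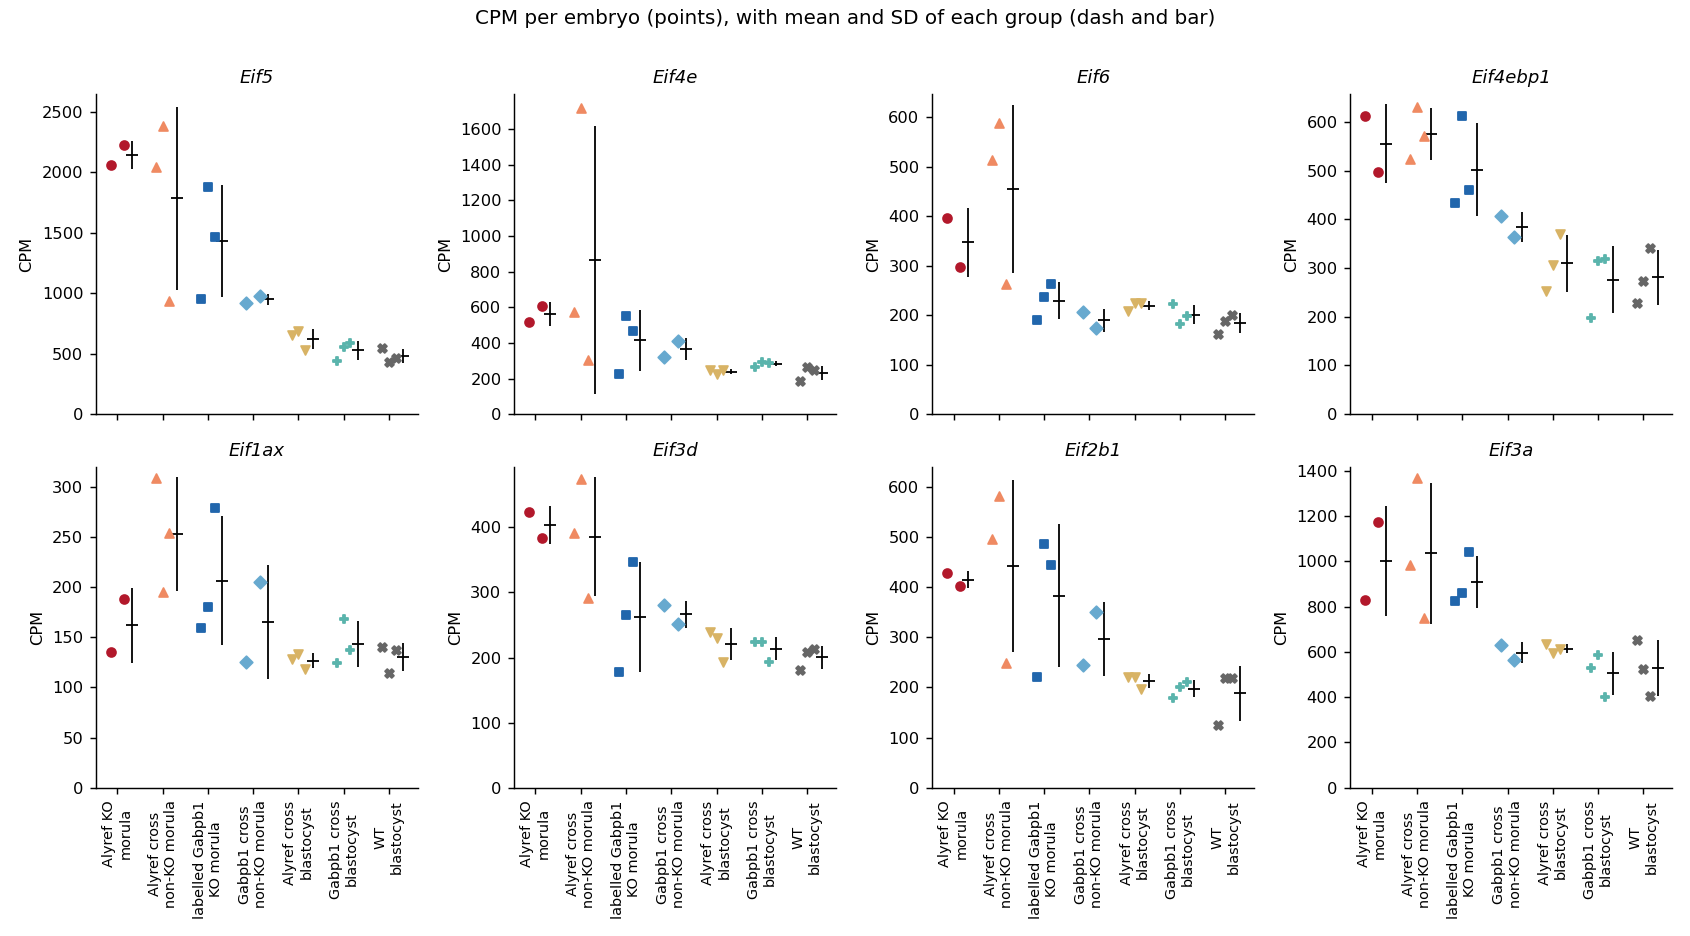
CPM of 8 of the genes called lower in blastocysts than in non-KO morulae of the Alyref cross, in every embryo, by group. Points are embryos, y axes start at 0, and a dash and bar show the mean and SD of each group (n = 2 or 3). Eif5 is at 433 to 684 CPM in the blastocysts of all 3 origins. It is at 933 CPM in the third Alyref cross non-KO morula, against 2043 and 2383 CPM in the first and the second.

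The third Alyref cross non-KO morula stood apart from the other morulae of its group. It was the lowest of the 3 for 31 of 50 members, and had the most trophectoderm marker RNA of the 3, at 2460 CPM against 1406 and 1200 CPM. Without it 18 members were called between stages (36%), and 24.8% of all genes. Without the first or the second morula 3 and 2 members were called, with 4.72% and 2.05% of all genes. Without the first, the second or the third blastocyst 1, 1 and 3 were called, with 2.29%, 2.4% and 6.04% of all genes. The counts of members and of all genes were thus both highest without the third morula, while their order differed among the lower counts. Trophectoderm markers were higher in the blastocysts in 11 of 12 genes, 4 of them called, with sums of 5412 to 8548 CPM against 1200 to 2460 CPM. Of the epiblast markers 3 of 10 fell, Nanog with the largest change at -1.95. Whether the change in cell types has a part in the lower initiation factor levels was not tested.

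In the Gabpb1 cross the same comparison called 0 of 50 members with edgeR, and 0% of all genes. Without adjustment 6 members (12%) had p under 0.05, 3 in each direction, against 6.72% of all genes, and no alternative called a member. The median log2 fold change of the members was -0.04, beside 0.02 over all genes, and with ERCC scaling -0.96, beside -0.86. Eif5 was at 917 and 982 CPM in the morulae and at 442, 555 and 588 CPM in the blastocysts (-0.84, SE 0.32, adjusted p 0.619), without overlap. Eif4ebp1 was at 407 and 363 CPM against 197, 314 and 318 CPM (-0.48, SE 0.24, adjusted p 0.768), and Eif4e at 324 and 410 CPM against 267, 295 and 289 CPM (-0.37, SE 0.49, adjusted p 0.94). Eif6 was at 206 and 174 CPM against 222, 182 and 199 CPM, with overlap (0.08, SE 0.27). The difference between the stage differences of the crosses, a comparison added after the data were seen, was called for 0 of 50 members with edgeR and 0.00543% of all genes, with 8 members (16%) at an unadjusted p under 0.05, against 13.8% of all genes. Limma with embryo weights called 3 members (6%), against 6.17% of all genes. For Eif6 that difference was 1.13 (SE 0.36, adjusted p 0.237) and for Eif5 0.68 (SE 0.43, adjusted p 0.495).

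The non-KO morulae of the crosses differed from each other. Of the 50 members 3 were lower in the Gabpb1 cross, where 0.674% of all genes were called lower, and 1 was higher, where 1.18% were. The median log2 fold change was -0.41 over the members, beside -0.03 over all genes, and with ERCC scaling it turned to 0.10, beside 0.39 over all genes. Both Gabpb1 cross morulae lay below all 3 Alyref cross morulae for 23 members (46%, against 18.2% of all genes) and above them for 2 (4%, against 17.9%).

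Eif6 was at 206 and 174 CPM in the Gabpb1 cross and at 513, 587 and 264 CPM in the Alyref cross (log2 fold change -1.26, SE 0.28, adjusted p 0.0361). Eif1ad, which encodes a protein with an eIF1A-like domain, was at 122 and 84.1 CPM against 208, 217 and 177 CPM (-0.96, SE 0.21, adjusted p 0.0381). Eif2b3 was at 107 and 81.7 CPM against 228, 272 and 157 CPM (-1.21, SE 0.29, adjusted p 0.0487). Eif4e3 was at 4.84 and 7.23 CPM against 0.814, 0.928 and 1.49 CPM (2.48, SE 0.53, adjusted p 0.0361), and 14.8% of its length is shared with Gm20696 on the same strand. In these 4 genes the groups did not overlap. Leaving out any of 4 embryos (either Gabpb1 cross morula, and the first and second of the Alyref cross) ended all 4 calls, and without the third Alyref cross morula 12 members (24%) and 13.3% of all genes were called.

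The Gabpb1 cross non-KO morulae also had more trophectoderm marker RNA, at 5192 and 3399 CPM against 1200 to 2460 CPM, with 10 of 12 markers higher and 1, Krt7, called. Nanog, an epiblast marker, fell (89.2 and 171 CPM against 284 to 374 CPM, log2 fold change -1.38, adjusted p 0.0334). The 3 labelled KO morulae, compared with the same pair of embryos above, had Eif4e3 at 2.07, 6.85 and 5.11 CPM.

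Against WT blastocysts, no member was called in blastocysts of either cross. In the Alyref cross 0 of 50 members and 0% of all genes were called with edgeR, and 0 members had p under 0.05 before adjustment, against 2.94% of all genes. In the Gabpb1 cross 0 of 50 members and 0% of all genes were called, and 2 members (4%) had p under 0.05 before adjustment, against 6.10% of all genes: Eif2d at 218, 185 and 196 CPM against 101, 129 and 119 CPM in WT (0.78, SE 0.25, adjusted p 0.727), and Eif4g3 at 12.8, 9.83 and 16.1 CPM against 41.4, 23.7 and 12.7 CPM (log2 fold change -1.002, SE 0.38, adjusted p 0.80). No alternative called a member in either comparison. Data over 18410 genes were simulated for the Gabpb1 KO contrast. Changes were set in genes drawn at random from those above a floor on mean CPM, so scarce genes were not covered. Of changes of log2 size 1, 4.48% were called, and 67.2% of those of size 2, so those of size 1 were mostly missed. Recovery for the members alone and for the blastocyst comparisons was not simulated.

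Shares of paralogues are given as a description, with no test. Eif4e made up 76.6 ± 15.5% (SD, n = 3) of the summed FPKM of the 4 cap-binding genes in non-KO morulae of the Alyref cross and 52.5 ± 2.55% (SD, n = 3) in blastocysts of that cross. In the Gabpb1 cross the shares were 68.5 ± 5.93% (SD, n = 2) and 57.4 ± 1.99% (SD, n = 3), and in WT blastocysts 49.4 ± 4.05% (SD, n = 3). Nearly all of the rest was Eif4e2, at 22.8 ± 15.3% (SD, n = 3) in these morulae and 46.9 ± 2.55% (SD, n = 3) in the blastocysts. The KO morulae had 74.4 ± 2.95% Eif4e (SD, n = 2) in the Alyref cross and 72.1 ± 8.20% (SD, n = 3) where labelled Gabpb1 KO. Every one of the 10 morulae had a higher Eif4e share than every one of the 9 blastocysts, the nearest being 62.1% and 59.4%.

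Eif1a made up 78.2 ± 3.77% (SD, n = 3) of the Eif1a and Eif1ax sum in non-KO morulae of the Alyref cross and 86.5 ± 1.16% (SD, n = 3) in blastocysts, without overlap. In the Gabpb1 cross the shares were 79.2 ± 6.35% (SD, n = 2) and 85.4 ± 2.80% (SD, n = 3), with overlap. Eif4a1 and Eif4a2, paralogous helicase genes, had group mean shares of 57.0% to 63.0% Eif4a1 outside 1 group. The morulae labelled Gabpb1 KO had 45.9 ± 9.12% Eif4a1 (SD, n = 3) against 59.8 ± 2.23% (SD, n = 2) in the non-KO morulae, with Eif4a2 at 476, 779 and 575 CPM against 437 and 349 CPM (log2 fold change 0.63, SE 0.26, adjusted p 0.203).

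**Figure D5:**
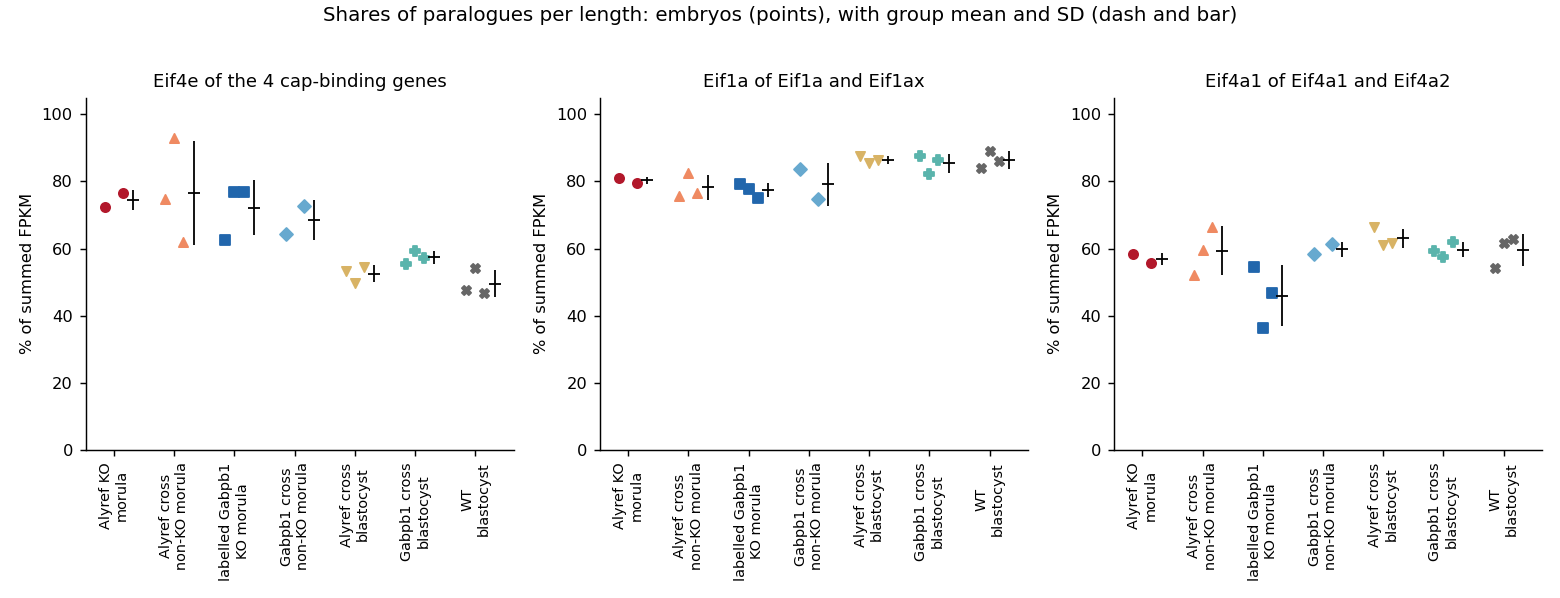
Share of 1 paralogue in the summed FPKM of its family (y axes from 0) in every embryo (points), by group, with a dash and bar for the mean and SD of each group (n = 2 or 3). The Eif4e share is 62.1% or more in all morulae and 59.4% or less in all blastocysts, and the Eif4a1 share is lowest in the morulae labelled Gabpb1 KO (45.9 ± 9.12%).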

How the data were processed

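Single embryos were lysed, ERCC spike-in RNA was added and libraries were sequenced, per the labels' protocols. The deposited values are whole-number counts of reads per gene for 19 embryos, although the table is titled FPKM; the authors used Trimmomatic, Trim Galore, cutadapt, STAR and featureCounts with mm10, per the submitters' processing notes. Versions and the strand setting are not given in the sources used here. The 53379 gene rows were tested without the 92 ERCC rows. Groups came from the labels, with 2 or 3 embryos each.

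Genes with FPKM of at least 1 in 2 embryos (18410) were fitted in edgeR 4.0.16 (R 4.3.3) with TMM scaling, quasi-likelihood tests, 1 mean per group over all embryos and Benjamini-Hochberg adjustment over all genes; a call is an adjusted p under 0.05. CPM uses the TMM-scaled gene total, and FPKM divides by the deposited exon length. Alternatives used DESeq2 1.42.0, limma 3.58.1, ERCC scaling, other filters, a replicate block, fewer groups, pooled non-KO morulae and each embryo left out. DESeq2 gave no adjusted p for some genes, and its percentages of all genes count these as not called. The fit was tested on simulated data. Genes named are members called in a comparison (at most 10 each), the 3 largest changes in each direction in both KO comparisons and in the Alyref cross stage comparison, the highest gene of each role and paralogues; others named, such as Eif2b2, Eif2b4 and Eif2a, were chosen after their values were seen. The members and lists were chosen with earlier results of these data known.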

Additional observations from a re-analysis of the deposited data

How the results depend on the processing

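Single-gene log2 fold changes were recomputed only for members called in a comparison or among its largest changes. None of these changed sign, which does not cover the other members. With ERCC scaling the median log2 fold change of the members was -0.35 for labelled Gabpb1 KO and -0.52 for stage in the Alyref cross. It was -0.96 for stage in the Gabpb1 cross and 0.095 between crosses. That scaling moved the median of all genes by -0.46, -0.30, -0.88 and 0.43 in the same order. With it 0, 2 and 0 members were called for Gabpb1 KO, Alyref cross stage and between crosses. Of all genes 0.141%, 1.91% and 0.0109% were called. Against non-KO morulae of both crosses the Gabpb1 KO median was -0.12. DESeq2 called 2 members for Alyref KO, 5 for Gabpb1 KO, 2 for the difference of KO effects and 14 for Alyref cross stage, where it called 2.73%, 6.97%, 4.86% and 20.4% of all genes. Limma with embryo weights called 2, 2, 1 and 23, and 13 between crosses, where it called 4.57%, 2.51%, 4.2%, 39.4% and 14.7% of all genes. A filter at FPKM 5 gave 2 for Gabpb1 KO, where 3.7% of all genes were called. With these groups alone in the fit 0, 1 and 0 were called for Gabpb1 KO, Alyref cross stage and between crosses. Of all genes 0%, 4.11% and 0% were called there. With each embryo left out the Gabpb1 KO median ranged from 0.085 to 0.196. Leaving out an embryo of a group of 3 gave 0 to 4 calls for Gabpb1 KO (0.679% to 5.38% of all genes). It gave 0 to 1 for the difference of KO effects (0.3% to 3.89%) and 1 to 18 for Alyref cross stage (2.05% to 24.8%). Between crosses it gave 0 to 12 (0% to 13.3%). The causes were not tested.

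With the replicate block 2 members were called for Gabpb1 KO (Eif2b3 added, adjusted p 0.0398) and 8 for Alyref cross stage (Eif3a lost, adjusted p 0.0523). Of all genes 1.44% and 10.9% were called with the block. The numbers do not pair the embryos: deviations of same-numbered embryos correlated at -0.147 to 0.168. Groups of 2 or 3 embryos limit what could be detected.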
